A study of Mus musculus with 8 samples.

Results

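Top1mt, Zc3h3, Eef1d, Scrib, Puf60, Plec, Exosc4, Gpaa1, Cyc1 and Maf1 are neighbouring genes on distal mouse chromosome 15, in that order from Top1mt to Maf1. They are 10 of the 19938 genes measured in 8 primary mouse osteosarcomas (OS, a bone tumour of the osteoblast lineage), and 10 of the 32 measured genes of their interval. They were chosen by position together with their values: each gene was represented by its probe set of highest mean, and its value in each tumour was set against the median of the other 7. The deviations of single tumours given below are therefore a description and carry no test. The 22 other measured genes of the interval are those that this choice left, so their contrast with the 10 is partly set by it. The 15 measured genes on either side of the interval were taken by position alone.

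The study compared tumours of 2 models in C57Bl6 mice, both of which reduce the tumour suppressor p53. The shRNA OS model carried the p53 hairpin P53.1224, a lineage-restricted transgene that lowers p53 by RNA interference, and gave 4 tumours: replicates 1 and 3 (tibia, Rbfl/+), replicate 2 (tibia, Rb+/+) and replicate 4 (humerus, Rbfl/+). The Cre:lox OS model deleted floxed p53 alleles (P53fl/fl) and gave 4 tumours: replicate 1 (scapula, Rb+/+), replicate 2 (humerus, Rbfl/+) and replicates 3 and 4 (tibia, Rbfl/+). Rbfl/+ denotes 1 floxed allele of the retinoblastoma gene, and each model held 1 Rb+/+ tumour. The labels do not name the promoter that drives the hairpin or the Cre. The replicate numbers follow the order of deposition and pair no tumours; values of several tumours are listed in the order of these numbers. Nothing in the labels says whether the tumours of a model came from separate animals, so the p-values measure the spread between these samples. Whole tumours were homogenised, and in such samples fewer cells of a type cannot be told apart from less RNA per cell.

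The 10 genes share no pathway. Between them they serve mitochondria, RNA processing, translation, the cytoskeleton and cell polarity, membrane anchoring of proteins, and control of RNA polymerase III. Most are used by nearly all cell types. Osteosarcoma is known for rearranged karyotypes, but the arrays measured RNA only, and DNA copy number was not analysed here.

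Array medians lay between 7.13 and 7.23 on the deposited log2 scale, on which values ran from 2.53 to 14.57. One array, that of shRNA OS replicate 2, was unlike the rest: its mean correlation with the other arrays was 0.941, against 0.961 to 0.968 for the other 7, and its interquartile range was 2.59, against 2.79 to 3.19. Signal over background cannot be read from the deposited values. The p53 gene was not among the genes tested here. Rb1 lay between 9.10 and 9.71 in the Rbfl/+ tumours and at 9.54 and 9.34 in the Rb+/+ tumours, so its level did not separate the genotypes; the position of its probes relative to the floxed exons is unknown here. Of 8 osteoblast markers, 5 were measured (Runx2, Bglap and Spp1 were not among the genes tested), and their mean level lay between 11.92 and 12.21 in the shRNA OS tumours and between 11.28 and 11.99 in the Cre:lox OS tumours. The mean level of 6 skeletal muscle markers lay between 7.57 (replicate 2) and 10.86 (replicate 3) in shRNA OS and between 8.16 and 10.58 in Cre:lox OS. The mean level of 5 macrophage markers lay between 9.20 and 10.62 in shRNA OS and between 9.72 and 10.94 in Cre:lox OS. The remaining lists gave 6.55 to 6.79 in shRNA OS and 6.63 to 6.87 in Cre:lox OS (epidermis, 6 of 6 measured), 9.38 to 9.94 and 8.89 to 9.90 in the same order (endothelium, 4 of 4), and 6.99 to 7.56 and 7.02 to 7.71 (erythroid cells, 2 of 5). The median deviation of the muscle markers from the other 7 tumours was -0.43, -1.55, 1.95 and -0.87 in shRNA OS. In Cre:lox OS it was 1.52, -1.08, 1.80 and 0.43. For the 10 genes it was 0.65, -0.74, 0.84 and 1.16 in shRNA OS. In Cre:lox OS theirs was -0.44, -0.42, -0.17 and 0.17. The part of these cell types in the results was not tested.

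The 10 genes stood high in shRNA OS replicates 1, 3 and 4, and lowest of all tumours in shRNA OS replicate 2. The mean of the 10 genes was 9.70, 8.31, 9.81 and 10.15 in the shRNA OS tumours, against 8.78, 8.80, 8.99 and 9.20 in the Cre:lox OS tumours (log2). The 3 high tumours lay above all Cre:lox OS tumours by this mean, and the low one below all of them. The members' median deviation was 0.65, -0.74, 0.84 and 1.16 in the shRNA OS tumours, against -0.44, -0.42, -0.17 and 0.17 in the Cre:lox OS tumours.

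Counted gene by gene, a deviation beyond 0.5 (log2) was taken as shifted. All 10 genes lay above the median of the other tumours by more than that in shRNA OS replicate 4, against 6.02% of all genes. For shRNA OS replicate 3 this held for 9 of 10 (6.68% of all genes) and in replicate 1 for 8 of 10 (7.14% of all genes). The exceptions were Plec in both tumours and Eef1d, at 0.47, in replicate 1. All 10 lay below by more than 0.5 in shRNA OS replicate 2, against 16.6% of all genes and 30.8% of the 8089 genes whose mean lay within the members' own range of 7.85 to 10.71. With quantile normalisation across the arrays, 5 of 10 lay below in that tumour, against 10.5% of all genes, and with median centring 7 of 10, against 9.99%. In the Cre:lox OS tumours 4 of 10 lay below by more than 0.5 in replicate 1 (2.77% of all genes) and 2 of 10 in replicate 2 (4.25%). In Cre:lox OS replicate 3 none did in either direction (9.28% of all genes above, 8.35% below), and likewise in replicate 4 (10.2% above, 6.53% below). These shares stand beside counts that the choice of members used, and nothing is read from them.

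**Figure D1:**
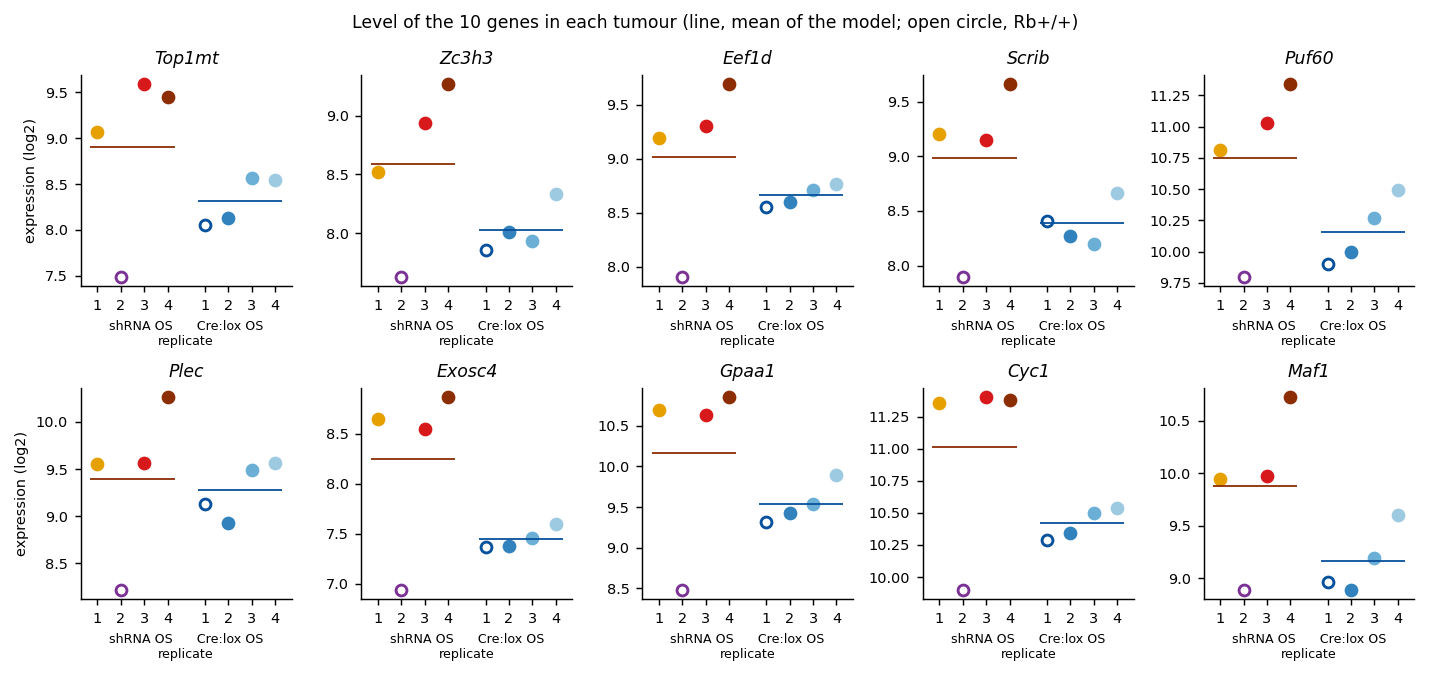
Level of each of the 10 genes (vertical axes, log2, each with its own range) in the 4 shRNA OS tumours and the 4 Cre:lox OS tumours (1 point per tumour, open circles Rb+/+, lines the mean of each model). shRNA OS replicate 2 is the lowest point in all 10 panels, and replicate 4 the highest in 8 of 10.

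Top1mt and Cyc1 encode mitochondrial proteins: a DNA topoisomerase that relaxes mitochondrial DNA, and cytochrome c1, a haem subunit of respiratory complex III. Top1mt was 9.07, 7.49, 9.59 and 9.45 in the shRNA OS tumours, against 8.05, 8.13, 8.57 and 8.54 in the Cre:lox OS tumours. Cyc1 was 11.36, 9.90, 11.40 and 11.38 in shRNA OS, and 10.29, 10.34, 10.50 and 10.54 in Cre:lox OS. Both genes were highest in shRNA OS replicate 3, and their 3 high shRNA OS tumours cleared every Cre:lox OS tumour, while replicate 2 lay below every one. For Cyc1 the 3 high tumours were almost equal, with deviations of 0.86, 0.90 and 0.88.

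Zc3h3, Puf60 and Exosc4 act on RNA in the nucleus: a zinc-finger protein known from human cells for its part in polyadenylation and mRNA export, a splicing factor that helps recognise the 3′ splice site, and a ring subunit of the RNA exosome, which trims and degrades RNA. Zc3h3 was 8.52, 7.63, 8.94 and 9.27 in the shRNA OS tumours, against 7.86, 8.01, 7.93 and 8.33 in the Cre:lox OS tumours. Puf60 was 10.81, 9.80, 11.03 and 11.34 in shRNA OS, and 9.90, 10 (at 2 decimals), 10.27 and 10.49 in Cre:lox OS. Exosc4 was 8.64, 6.94, 8.55 and 8.86 in shRNA OS, and 7.37, 7.38, 7.46 and 7.60 in Cre:lox OS. All 3 were highest in shRNA OS replicate 4, and the high and low tumours were the same as for Top1mt and Cyc1. Zc3h3 has a second probe set, which read 8.30, 7.70, 8.67 and 9.04 in shRNA OS and 7.76, 7.82, 7.74 and 8.12 in Cre:lox OS, with replicates 1, 3 and 4 again above every Cre:lox OS tumour and replicate 2 below all of them.

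Eef1d and Maf1 act on translation and on the supply of its small RNAs: the delta subunit of the exchange factor that recharges elongation factor eEF1A, and a repressor of RNA polymerase III, which transcribes transfer RNAs and 5S ribosomal RNA. Eef1d was 9.19, 7.91, 9.30 and 9.69 in the shRNA OS tumours, against 8.55, 8.60, 8.71 and 8.77 in the Cre:lox OS tumours. Maf1 was 9.94, 8.89, 9.97 and 10.72 in shRNA OS, and 8.96, 8.89, 9.19 and 9.60 in Cre:lox OS. Maf1 stood furthest out of the 10 genes in shRNA OS replicate 4, with a deviation of 1.54. Its level in shRNA OS replicate 2 was almost that of Cre:lox OS replicate 2.

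Scrib, Plec and Gpaa1 act at membranes or in the cell's scaffold. They encode a polarity scaffold of the basolateral membrane, the cytolinker plectin, and a subunit of the transamidase that attaches glycosylphosphatidylinositol (GPI) anchors to proteins. Plectin ties intermediate filaments to junctions and other filaments. Scrib was 9.20, 7.90, 9.15 and 9.66 in the shRNA OS tumours, against 8.41, 8.27, 8.20 and 8.66 in the Cre:lox OS tumours. Gpaa1 was 10.70, 8.48, 10.63 and 10.85 in shRNA OS, and 9.31, 9.43, 9.54 and 9.89 in Cre:lox OS. Plec was 9.55, 8.22, 9.56 and 10.26 in shRNA OS, and 9.13, 8.93, 9.49 and 9.56 in Cre:lox OS. Scrib and Gpaa1 had the same high and low tumours as the genes above, with Gpaa1 furthest below the rest in shRNA OS replicate 2 (deviation -1.41). Plec was the exception: shRNA OS replicates 1 and 3 lay level with Cre:lox OS replicate 4, with deviations of 0.07 each, and among the high tumours only replicate 4, at 0.78, stood out.

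The same arrangement was counted over all genes, after it had been seen in the members. shRNA OS replicates 1, 3 and 4 lay above every Cre:lox OS tumour for 9 of the 10 genes (4.13% of all genes). shRNA OS replicate 2 was the lowest of the 8 tumours for all 10 (23.2% of all genes, and 40.2% of those in the members' range of mean levels). Both held for 9 of 10 members, all but Plec, for 0.667% of all genes, 133 in number, and for 1.22% of those in the members' range. Of those 133 genes 22 lay on chromosome 15 (3.77% of the placed genes) and 36 on chromosome 7 (8.73%). Another 17 lay on chromosome 10 (4.72%) and 12 on chromosome 11 (7.87%), so the arrangement also occurred far from the interval. The 22 include the 9 members, chosen on these values, and 8 other genes of the interval. Within chromosome 15 but outside the interval and its flanks, 1 of 686 genes had the arrangement. Among the Cre:lox OS tumours replicate 4 was highest for 9 of the 10 genes and replicate 1, the Rb+/+ tumour, lowest for 7 of 10. The shares of all genes with this order within Cre:lox OS are not given here, so nothing is read from these 2 counts.

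The 10 genes varied together across the tumours. Over their 45 pairs, Pearson's r across the 8 tumours lay between 0.816 (Plec with Cyc1) and 0.989 (Exosc4 with Cyc1), with a median of 0.948. Without shRNA OS replicate 2 the median was 0.939 and the range 0.722 to 0.987. Over the 4 Cre:lox OS tumours alone the median was 0.886 and the range 0.163 to 0.996. All pairs share the same arrays, and the members were chosen for moving alike, so these values describe them only.

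The 22 other measured genes of the interval leaned the same way with more scatter. Their median deviation was 0.44, -0.66, 0.39 and 0.72 in the shRNA OS tumours, against -0.15, -0.25, -0.15 and 0.02 in the Cre:lox OS tumours. In shRNA OS the number above 0.5 was 6, 0, 8 and 12 of the 22, against 7.14%, 12.6%, 6.68% and 6.02% of all genes. The number below -0.5 was 0, 12, 0 and 0, against 4.01%, 16.6%, 3.91% and 6.55% of all genes. In replicate 2 this was 30.8% of the genes in the members' range of mean levels. In replicate 4, 10 of the 22 thus lay within 0.5. In Cre:lox OS 1, 0, 0 and 3 of the 22 lay above 0.5, against 5.53%, 7.54%, 9.28% and 10.2% of all genes. Below -0.5 lay 5, 6, 2 and 1, against 2.77%, 4.25%, 8.35% and 6.53% of all genes. At 13.6% above and 4.55% below, Cre:lox OS replicate 4 was near these shares.

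Fam83h, a gene known for its part in enamel formation, and the zinc-finger gene Zfp623 were among the furthest out of these 22 genes, to which the ranks of this paragraph refer. In shRNA OS replicate 4 the largest deviations were 2.95 for Fam83h, 2.06 for Zfp623 and 1.73 for Nrbp2, a pseudokinase gene, and the smallest were -0.02 for Mirt2, 0.06 for Spatc1 and 0.06 for Mafa, an insulin gene activator of pancreatic beta cells. The largest in shRNA OS replicate 3 were 1.34 for Zfp623, 1.14 for Fam83h and 1.08 for Pycrl, an enzyme of proline synthesis, against -0.41 for Eppk1, -0.35 for Spatc1 and -0.08 for Iqank1. Those of shRNA OS replicate 1 were 1.05 for Fam83h, 0.92 for Zfp623 and 0.84 for Sharpin, a subunit of the linear ubiquitin ligase, against -0.27 for Mirt2, -0.24 for Oplah and -0.20 for Spatc1. Zfp623 and Fam83h thus led the 22 in all 3 high tumours, though Exosc4 and Gpaa1, of the 10, lay further out in replicate 1. The low tumour, shRNA OS replicate 2, had the lowest deviations of the 22 in Zfp623 at -1.40, Nrbp2 at -1.34 and Grina at -1.27, and the highest in Mirt2 at 0.24, Iqank1 at 0.12 and Eppk1 at 0.04. Fam83h did not follow the members in Cre:lox OS replicate 1, where it deviated by 0.69 upward. Spatc1 (5.11 to 5.57), Mirt2 (5.71 to 6.19) and Mafa (5.91 to 6.90) were low in level (log2) in all tumours. Their small deviations therefore do not show that these genes stayed out of the shift.

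**Figure D2:**
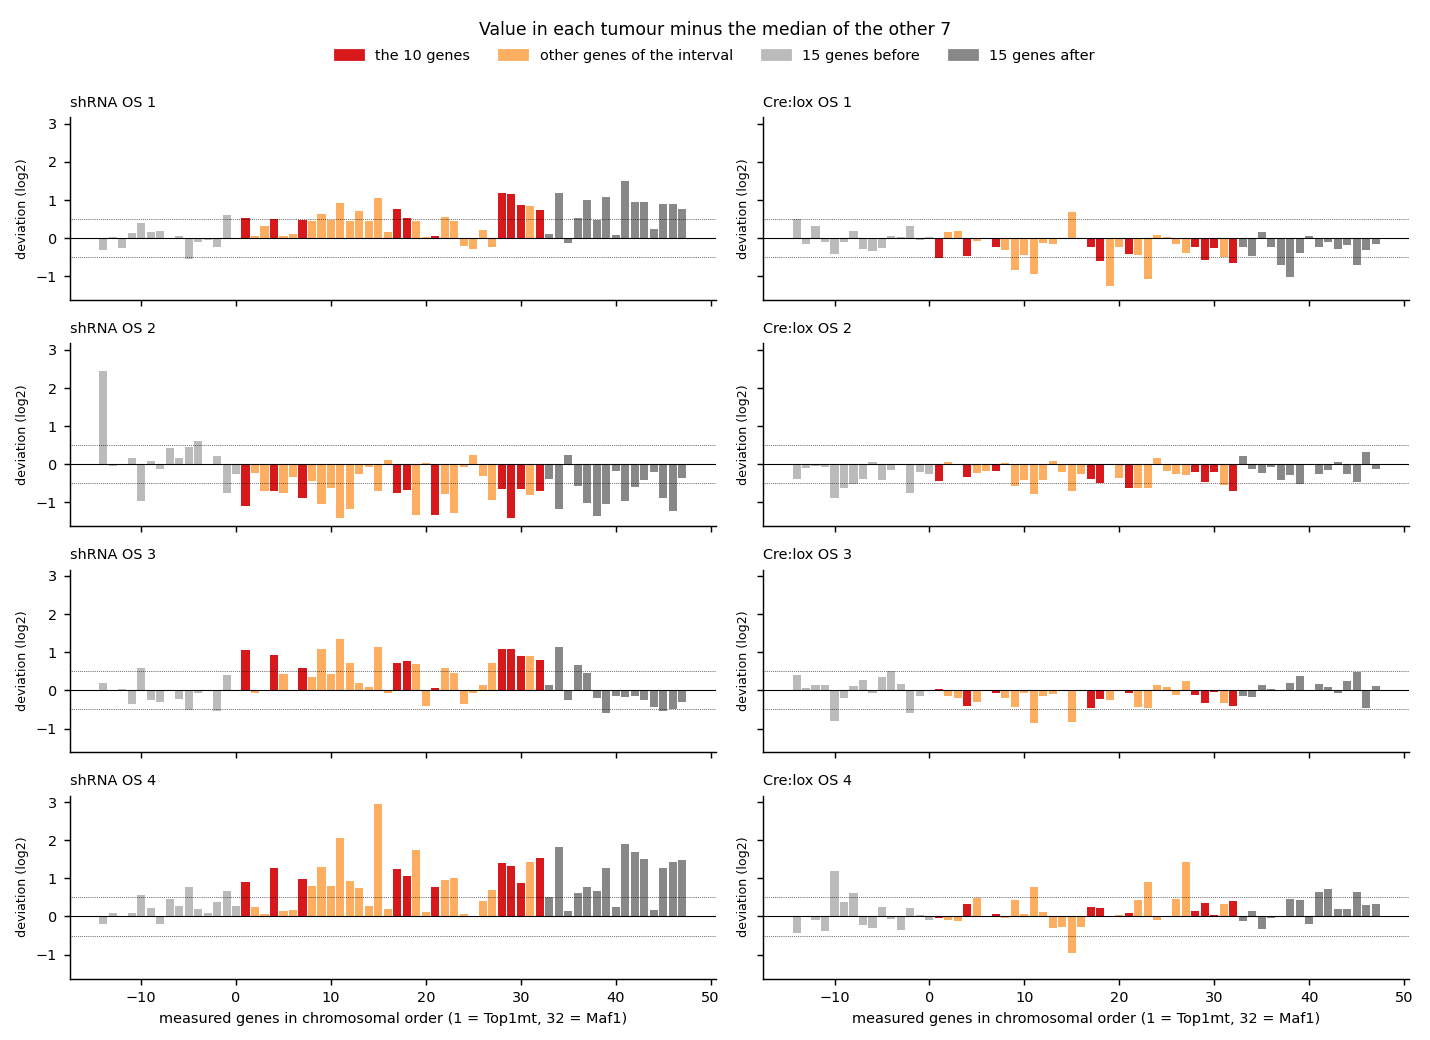
Deviation of each measured gene (bars, value in the tumour minus the median of the other 7, log2) in chromosomal order, with 15 genes on either side of the interval and dotted lines at 0.5 and -0.5. The left column holds shRNA OS and the right column Cre:lox OS; bars of the 10 genes stand above 0.5 for 10 of 10 in shRNA OS replicate 4 and below -0.5 for 10 of 10 in shRNA OS replicate 2.

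The edges of the stretch differed between tumours. Of the 15 measured genes before Top1mt, mostly Ly6 genes for GPI-anchored surface proteins, the median deviation was 0.01, 0.10, 0.01 and 0.22 across the shRNA OS tumours and lay between -0.25 and 0.12 in the Cre:lox OS tumours. Of the nearest 3 named genes, the zinc-finger gene Zfp41 read most like the members, with 0.61, -0.74, 0.41 and 0.67 across shRNA OS. Gpihbp1, which carries lipoprotein lipase to the capillary wall, read -0.22, 0.23, -0.55 and 0.39, and Ly6h -0.04, -0.01, 0.01 and 0.10. Most of the 15 genes were low in level. Ly6h lay between 6.27 and 6.77 (log2) over all tumours, against 6.81 to 8.17 for Zfp41 and 8.22 to 9.13 for Gpihbp1. Small deviations at such low levels do not place an edge at Top1mt.

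After Maf1 the 15 measured genes had a median deviation of 0.90, -0.60, -0.19 and 1.26 in the shRNA OS tumours, against -0.24, -0.14, 0.10 and 0.20 in the Cre:lox OS tumours. The medians of shRNA OS replicates 1, 2 and 4 thus kept the members' direction past Maf1, and that of replicate 3 did not. Of the nearest 3 named genes, Hgh1 read 1.18, -1.18, 1.14 and 1.81, Mroh1 0.53, -0.57, 0.67 and 0.62, and Tssk5, a testis-specific kinase gene, -0.13, 0.25, -0.25 and 0.13.

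The turn in shRNA OS replicate 3 came between Bop1 and Scx, a boundary chosen after its values were seen. Bop1, a factor of large ribosomal subunit assembly, deviated by 0.99, -1.02, 0.46 and 0.76 across shRNA OS. Scx, the tendon transcription factor scleraxis, read 0.47, -1.36, -0.19 and 0.66, and Dgat1, an enzyme of triglyceride synthesis, 1.09, -1.04, -0.59 and 1.26. Over the 10 measured genes from Scx to Cyhr1 all 10 lay below 0 in replicate 3 (median -0.29, range -0.59 to -0.14). So did 11461 of all 19938 genes and 468 of the 686 genes of chromosome 15 outside the interval and its flanks. Of the same 10 genes, 7 lay above 0.5 in replicate 1 (median 0.91), against 7.14% of all genes. In replicate 4 it was 8 of 10 (median 1.34), against 6.02% of all genes. The median of these 10 genes in shRNA OS replicate 2 was -0.74, with all 10 below 0. Below 0 in that tumour were also 10534 of all 19938 genes and 6457 of the 8089 in the members' range of mean levels. In the Cre:lox OS tumours their median was -0.27, -0.20, 0.14 and 0.38.

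A running median over 15 genes gave the reach of each shift. Within the interval it lay between 0.07 and 0.75 in shRNA OS replicate 1, between -0.76 and -0.34 in replicate 2, between 0.01 and 0.69 in replicate 3 and between 0.28 and 0.95 in replicate 4. From Maf1 onward it remained above 0.5 up to 33 genes past Maf1 in replicate 1, up to 22 genes in replicate 4 and up to 2 genes in replicate 3, and below -0.5 up to 12 genes in replicate 2. On the other side, 44 genes before Top1mt, past Ptp4a3 towards Myc, it was 0.41 in replicate 1, 1.40 in replicate 2 and 1.09 in replicate 4. There replicate 2 was thus high, opposite to its direction in the interval, and replicate 4 was higher than anywhere in the interval. Replicate 3 was -0.36 at that place and -0.59 at the next gene out, also opposite to its direction in the interval. Its highest value on that side was 0.23, within the stretch read here, which did not extend to the start of the chromosome. The Cre:lox OS tumours lay between -0.71 and -0.13 at that place. Over the 686 genes of chromosome 15 outside the interval and its flanks, the median deviation lay between -0.12 and 0.14 in the 8 tumours.

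**Figure D3:**
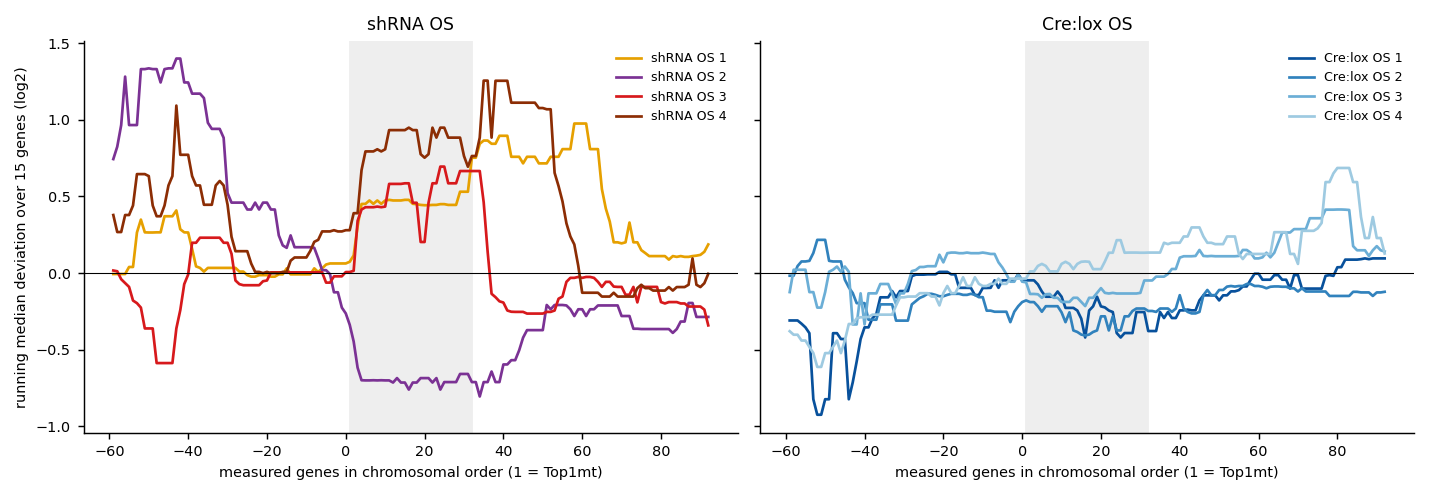
Running median of the deviation over 15 measured genes (log2) along chromosome 15, with the interval from Top1mt to Maf1 shaded, for the shRNA OS tumours (left) and the Cre:lox OS tumours (right). In the shaded stretch shRNA OS replicates 1, 3 and 4 reach 0.75, 0.69 and 0.95 and replicate 2 reaches -0.76, and the line of replicate 3 drops below 0 past Maf1 where those of replicates 1 and 4 stay high.

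Whether the models differed as groups was asked with limma over all 19938 genes. Fitted differences of the 10 genes, shRNA OS minus Cre:lox OS, were positive for all 10, with a median of 0.59 (range 0.12 to 0.79), against a median of 0.01 over all genes. None passed an adjusted p under 0.05 (limma, Benjamini-Hochberg over all genes; 0.0201% of all genes passed), and none passed an unadjusted p under 0.05 upward, against 3.61% of all genes. Members were chosen on these same values, so neither this fit nor the 2 that follow is an independent test of them.

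The largest difference was that of Exosc4, which averaged 8.25 ± 0.88 in shRNA OS and 7.45 ± 0.10 in Cre:lox OS (SD, n = 4 each), a difference of 0.79 (SE 0.37, limma adjusted p = 0.535). Maf1 averaged 9.88 ± 0.75 in shRNA OS and 9.16 ± 0.32 in Cre:lox OS, a difference of 0.72 (SE 0.34, limma adjusted p = 0.547). The smallest was that of Plec, with 9.40 ± 0.85 in shRNA OS and 9.28 ± 0.30 in Cre:lox OS, a difference of 0.12 (SE 0.37, limma adjusted p = 0.949). The values of the 2 models overlapped for all 10 genes, for 9 of them through shRNA OS replicate 2 alone and for Plec also without it, and the spread within shRNA OS was the wider for each. The other 7 genes had differences between 0.36 (Eef1d) and 0.62 (Gpaa1).

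The model difference depended on that tumour. Without shRNA OS replicate 2 the differences lay between 0.52 and 1.23, 9 of 10 genes had an unadjusted p under 0.05 upward (4.48% of all genes), and Exosc4 passed the adjusted threshold, with 1.23 (limma adjusted p = 0.0416, against 0.101 to 0.599 for the other 9). Without shRNA OS replicate 4 the differences lay between -0.16 (Plec) and 0.59, with adjusted p of 0.839 or more. With array weights, which lower the weight of arrays that vary more, the median difference was 0.93 and none passed (smallest adjusted p 0.136). The count of members at an unadjusted p under 0.05 upward also moved with the settings: it was 9 with array weights (5.22% of all genes), 5 with quantile normalisation (5.67%), 4 with median centring (4.76%) and 5 with Rb genotype as covariate (3.64%). Of the 22 other interval genes none passed the adjusted threshold, and 1 had an unadjusted p under 0.05 upward, Fam83h, with a difference of 1.21 (SE 0.53, limma adjusted p = 0.504).

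Rb genotype was compared with the model as covariate: 6 Rbfl/+ tumours against 2 Rb+/+ tumours, 1 of each model. Differences, Rbfl/+ minus Rb+/+, were positive for all 10 genes, with a median of 0.82 (range 0.70 to 1.28), against -0.02 over all genes. None passed an adjusted p under 0.05 (limma adjusted p = 0.836 each; 0.0% of all genes passed), while 9 of 10, all but Scrib, had an unadjusted p under 0.05 upward, against 3.09% of all genes. Of the other 22 interval genes 9 did too.

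Gpaa1 had the largest of these differences: it averaged 10.17 ± 0.63 in Rbfl/+ tumours (SD, n = 6) and 8.89 ± 0.59 in Rb+/+ tumours (SD, n = 2), a difference of 1.28 (SE 0.37, limma adjusted p = 0.836). Top1mt averaged 8.89 ± 0.57 in Rbfl/+ tumours and 7.77 ± 0.40 in Rb+/+ tumours, a difference of 1.12 (SE 0.32, limma adjusted p = 0.836). The genotypes overlapped for Scrib, Plec and Maf1 and not for the other 7 genes. The share of all genes without overlap is not given here, so nothing is read from this count.

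The difference was larger within the shRNA OS model, in which the only Rb+/+ tumour was replicate 2. Within shRNA OS the mean of the 3 Rbfl/+ tumours exceeded the Rb+/+ tumour by 1.26 (Puf60) to 2.25 (Gpaa1), and the Rb+/+ tumour was lowest for all 10 genes. Within Cre:lox OS the same difference ran from -0.04 (Scrib) to 0.36 (Top1mt and Puf60), and the Rb+/+ tumour was lowest for 7 of 10. The share of all genes for which the Rb+/+ tumour was lowest of its model is not given here, so nothing is read from these counts. In a limma fit without shRNA OS replicate 2, which leaves 1 Rb+/+ tumour and assumes that it varies like the others, no member had an unadjusted p under 0.05 upward, and adjusted p was 1.0 for each. In the fit without Cre:lox OS replicate 1, which makes the same assumption, all 10 did (6.92% of all genes), with a median difference of 1.48 and limma adjusted p between 0.155 and 0.217. With 1 Rb+/+ tumour per model, genotype cannot be told apart from the single tumours that carry it.

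The tumour site was compared in the same way, 5 tibia tumours against 3 of the humerus or scapula. Differences, tibia minus other bones, lay between -0.34 and -0.05 for the 10 genes, with a median of -0.21, and none passed an adjusted p under 0.05 (limma adjusted p = 0.999 each; 0.0% of all genes passed). None had an unadjusted p under 0.05 downward, against 3.33% of all genes. The sign was not stable: the members' median was 0.28 without shRNA OS replicate 4 and 0.00 without shRNA OS replicate 2.

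**Figure D4:**
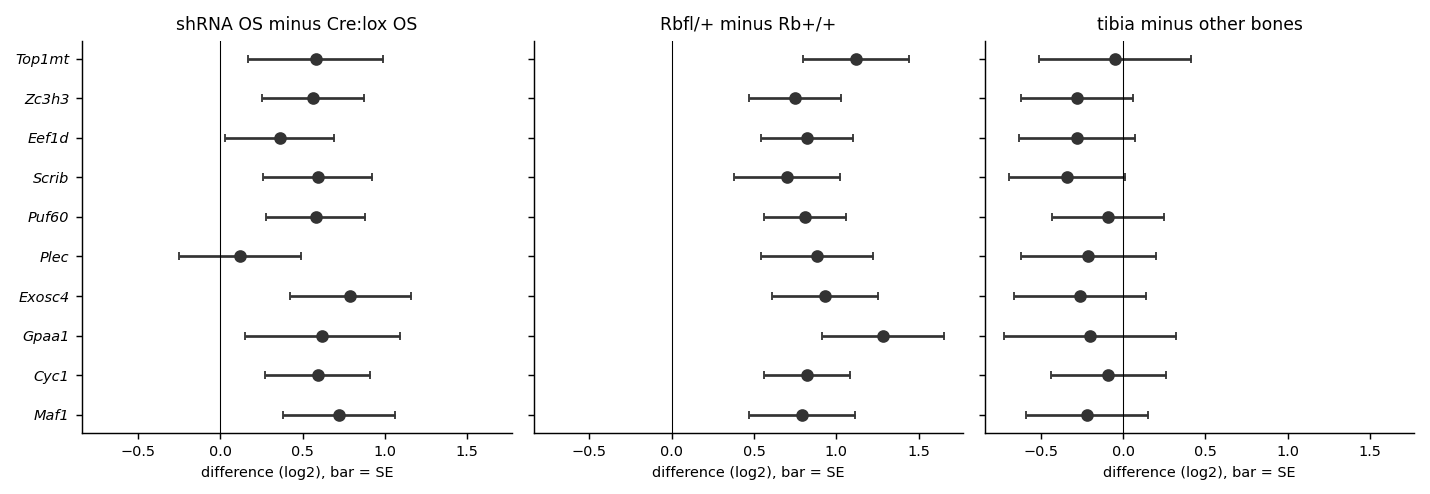
Fitted difference of each of the 10 genes (points, log2; bars, SE) in the 3 limma comparisons, shRNA OS minus Cre:lox OS, Rbfl/+ minus Rb+/+ and tibia minus other bones. All 10 points are above 0 in the first panel (0.12 to 0.79) and the second (0.70 to 1.28) and below 0 in the third (-0.34 to -0.05), and none passed the adjusted threshold.

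Each of the 10 genes works with proteins encoded elsewhere, and a list of such partner genes was drawn up for each. Of 154 listed genes 143 were measured and lie off chromosome 15. Their median deviation was 0.08, -0.25, -0.00 and -0.04 in the shRNA OS tumours, against 0.11, 0.13, -0.11 and -0.02 in the Cre:lox OS tumours. Beside 10 of 10 members above 0.5 in shRNA OS replicate 4, 8 of 143 partners lay above (5.59%) and 13 below -0.5. In replicate 3, 8 of 143 lay above, and in replicate 1, 7. For shRNA OS replicate 2, 33 of 143 lay below (23.1%), between the 16.6% of all genes and the 30.8% of genes in the members' range of levels. The members were chosen on these values, so their distance from the partners is partly set by that choice.

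In shRNA OS replicates 1, 3 and 4 no list's median deviated by more than 0.23 in either direction. The 13 RNA exosome genes measured beside Exosc4 had medians of 0.15, -0.23, -0.05 and -0.13 across shRNA OS, where Exosc4 deviated by 1.18, -0.66, 1.09 and 1.39. The 13 genes of complex III and cytochrome c measured beside Cyc1 had medians of 0.03, -0.13, 0.17 and -0.18, and the 23 genes of GPI anchor synthesis and attachment beside Gpaa1 0.07, -0.32, 0.06 and -0.05. The single subunits of the interval lay high in these 3 tumours, without a like shift in the median of their complexes. Because the members were chosen on these values, this contrast is partly set by the choice, and nothing is read from it. The 19 genes of RNA polymerase III and its factors beside Maf1 had medians of 0.08, -0.44, 0.03 and -0.02, and the 12 genes of mitochondrial DNA maintenance beside Top1mt 0.11, -0.19, 0.09 and 0.10.

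**Figure D5:**
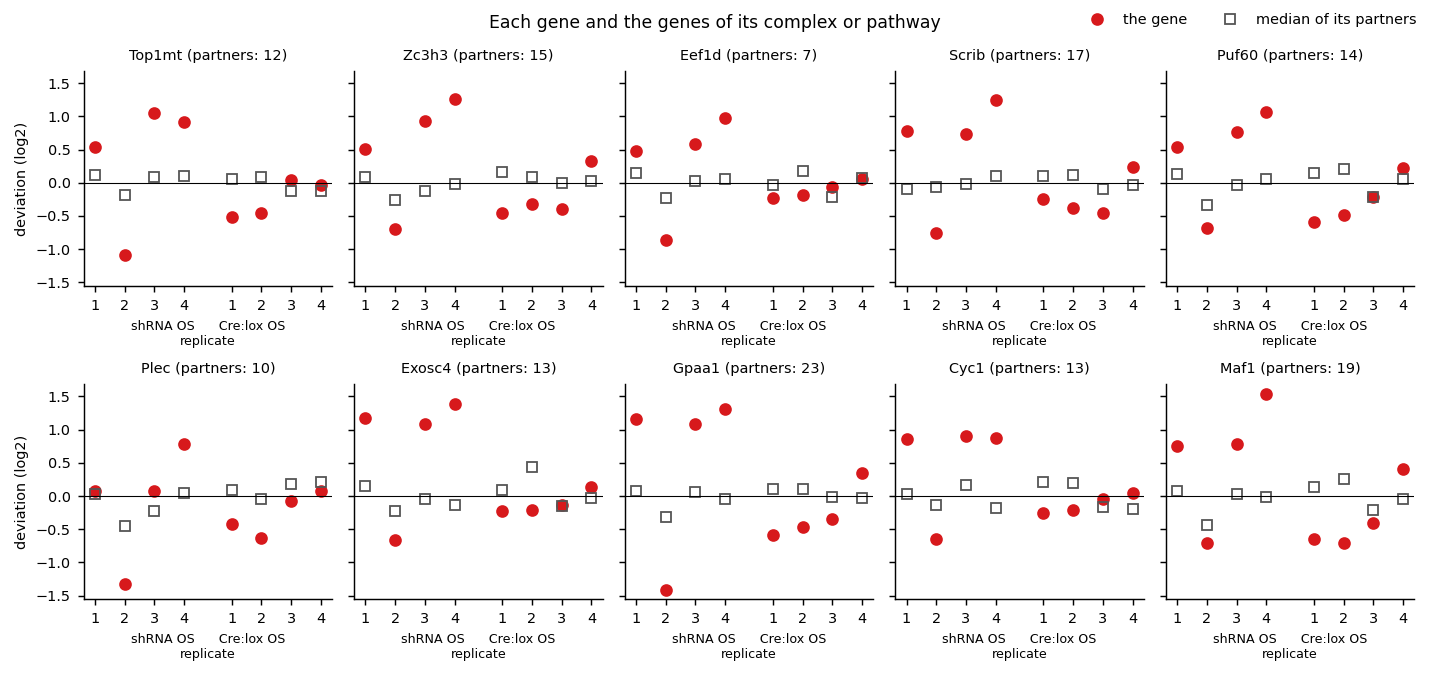
Deviation (log2) of each of the 10 genes (filled points) and the median deviation of its measured partner genes off chromosome 15 (open squares; number in each panel title) in the 4 shRNA OS and the 4 Cre:lox OS tumours. Filled points spread from -1.41 to 1.54, and the squares lie between -0.45 and 0.43.

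Between the models no partner gene passed an adjusted p under 0.05 (limma), and at an unadjusted p under 0.05 there were 4 higher and 7 lower of 143, beside 3.61% of all genes higher and 6.02% lower. The median difference of the partners was -0.08. In 9 of the 10 lists the median difference was below 0, between -0.27 (plectin partners and intermediate filaments) and -0.02 (complex III and cytochrome c), and for mitochondrial DNA maintenance it was 0.06. By the smallest p in each list, the polarity genes Dlg4, a synaptic scaffold, and Lin7c differed by -0.97 (SE 0.24, limma adjusted p = 0.239) and by -0.51 (limma adjusted p = 0.401). Among the GPI genes Pgap1, which remodels the anchor, differed by -0.78 (limma adjusted p = 0.274) and Pigk, the catalytic subunit of the transamidase, by -0.34 (limma adjusted p = 0.414). Itga6, an integrin that binds plectin through its beta partner, differed by -0.93 (limma adjusted p = 0.307), and the lamin gene Lmna by -0.67 (limma adjusted p = 0.451). None of these passed the adjusted threshold.

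Upward differences by the same rule were seen for Top2b and Polg in mitochondrial DNA maintenance, a topoisomerase and the mitochondrial DNA polymerase, at 0.64 and 0.47, and for Polr3e and Gtf3c1 of the RNA polymerase III list, at 0.48 and 0.34 (limma adjusted p between 0.394 and 0.502). In the exosome list Exosc3 and Exosc9 differed by -0.37 and -0.42, and in the complex III list Uqcrh and Cycs by -0.25 and -0.27. In the list for Zc3h3 the export factors Thoc5 and Thoc2 differed by -0.45 and -0.31. In the splice-site list U2af1 and Sf3b3 differed by -0.44 and 0.32, and among the elongation factors Eef1e1 and Eef2 by -0.30 and 0.16. All genes of this paragraph had a limma adjusted p of 0.394 or more.

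Genes outside the interval whose levels were most like the mean of the 10 members over the 8 tumours were Hgh1 (r = 0.99), Eif4ebp2 (0.98), Gtpbp3 (0.97), Mroh1 (0.97) and Zfp41 (0.96), as a description. Hgh1, Mroh1 and Zfp41 are near neighbours of the interval. Eif4ebp2, a repressor of cap-dependent translation on chromosome 10, was 10.41, 9.11, 10.81 and 10.88 in the shRNA OS tumours, against 9.65, 9.87, 9.83 and 10.16 in the Cre:lox OS tumours. Gtpbp3, a mitochondrial tRNA modification enzyme on chromosome 8, was 7.76, 7.52, 7.73 and 7.82 in shRNA OS, and 7.56, 7.63, 7.64 and 7.67 in Cre:lox OS. Of the 50 most alike genes 16 lay on chromosome 7 (8.73% of the placed genes), 11 on chromosome 10 (4.72%) and 4 on chromosome 15 (3.77%).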

How the data were processed

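Total RNA of 8 primary tumours was hybridised to 1-colour arrays. Per the submitters' processing notes, the deposited log2 values were made by RMA, and the build named there is mm9; the RMA version is not given in the sources used here. These log2 values were used as deposited. Of 35556 probe sets 21789 had 1 gene symbol, 1621 several and 12146 none listed, and the probe set of highest mean stood for each of 19938 genes. Gene order came from a RefSeq gene table of another build, so no coordinates are given. The deviation is the value in a tumour minus the median of the other 7. Differences were fitted with limma 3.58.1 in R 4.3.3 (lmFit and eBayes) over all genes, p-values were adjusted by Benjamini-Hochberg, with 0.05 as threshold; the model was the term of interest, or the covariate for Rb genotype and tumour site. The fit was tested on simulated data. Descriptions used Python 3.11.15 with pandas 2.3.3 and numpy 2.4.6, and figures matplotlib 3.10.9.

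The members and gene lists were chosen with earlier results of these data known. Named genes were the 10 members, the 3 largest and 3 smallest deviations among the other interval genes in each tumour whose median member deviation was beyond 0.5, the nearest 3 of the 15 genes on either side, the 2 of smallest p in each partner list, and the 5 genes outside the interval most like the members' mean. Provisional symbols (Rik, Gm and LOC names) entered the counts but are not named. Genes named beside these (Bop1, Scx, Dgat1, Cyhr1) were chosen after their values were seen. Alternatives were quantile normalisation, median centring, a filter that left out the lowest 25% of genes, the mean of a gene's probe sets, trend and robust moderation, array weights, Rb genotype or site as covariate, the mean of the other 7 in place of their median, and leaving out each tumour. The number of arrays limits the precision.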

Additional observations from a re-analysis of the deposited data

Results flagged for a closer look

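In shRNA OS replicate 2, 3 of the 10 genes lay far below the other 3 tumours of the model. Exosc4 was 6.94, Gpaa1 was 8.48 and Cyc1 was 9.90 (log2), and the gap to the nearest other tumour took 0.841, 0.904 and 0.975 of the group's whole range, more than Dixon's 95% critical value for 4 samples. The array of the same tumour was also apart in its mean correlation with the other arrays, 0.941, where the gap took all of the range at the printed precision. Of 26 such groups examined, 4 stood out. Chance flags about 1 group in 20 where values were not used to choose the genes. Here the members were chosen on these values and the 4 come from 1 tumour, so the comparison with the critical value describes the genes and is no test of them.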

How the results depend on the processing

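Over the alternatives run, 0 to 1 members passed the adjusted threshold between the models, the 1 being Exosc4 without shRNA OS replicate 2. Over all genes 4 passed, against 21 with quantile normalisation, 9 with median centring, 19 with array weights, 13 with site as covariate, and 0 to 42 when single tumours were left out. The model difference of Plec lay between -0.16 and 0.52 over the left-out tumours, with the negative value without shRNA OS replicate 4, and the Rb genotype difference of Scrib between -0.04 and 1.44, negative without shRNA OS replicate 2. The cause was not tested. For tumour site 0 to 1 of all genes passed, and the members' median ran from -0.40 to 0.28. The members' median deviation kept its direction in shRNA OS replicates 1 to 4 and Cre:lox OS replicates 1 and 2 under every alternative run. With single tumours left out it ran from -0.48 to 0.00 in Cre:lox OS replicate 3 and from -0.15 to 0.28 in Cre:lox OS replicate 4. The count of members above 0.5 in shRNA OS replicate 1 was 8 against the median of the other 7 (7.14% of all genes). It was 5 against the mean of the other 7 (6.73%) and 6 with quantile normalisation (6.24%). With median centring it was 6 (5.95%), and with the mean of a gene's probe sets 7 (7.04%). No paired analysis was possible because the replicate numbers follow the order of deposition. Signal over background is unknown here, so the depth behind single values cannot be given.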
